A study of Mus musculus with 134 samples.

Results

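The extracellular matrix genes described here were 40 listed genes for stromal collagens and the proteins that assemble around them, and they were found by gene symbol among the probe sets that carried 1 symbol. Of the 40 genes, 38 were measured, among 19938 genes in all. Fbn1, the fibrillin of elastic microfibrils, had no probe set under its name, and Loxl2, a lysyl oxidase, was named only together with other symbols, so neither was used. Each of the 38 had 1 probe set.

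They were measured in 134 mammary tumors of mice from a cross of MOLF/Ei, a wild-derived strain, with PyMT mice. By the labels each animal gave 1 tumor, which was hybridized to 1 Affymetrix Mouse Gene 1.0 ST array. The animals were PyMT-positive N2 females. Their F1 fathers came from MMTV-PyMT males and MOLF/EiJ females and were crossed to FVB/NJ females. In all of them the polyomavirus middle T antigen was driven by the MMTV promoter, which is active mainly in mammary epithelium, so the tumors share 1 initiating oncogene and differ in inherited alleles. No animal was treated, tumors were taken as the animals neared a humane endpoint, and ages were not given in the labels. The labels hold no other group, so genes and tumors were compared within 1 set of 134. Precision is limited by how many arrays there were.

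The matrix of a tumor is made of a few families of secreted proteins. Fibrillar collagens (types I, III and V) form the cables of the interstitial matrix, which small proteoglycans space apart and lysyl oxidases cross-link. Type IV collagen, laminins and nidogen form the basement membrane under epithelium, around vessels and around fat and muscle cells. Matricellular proteins such as tenascin C and periostin sit in the matrix and act on cells more than they bear load. Fibroblasts make most of the interstitial matrix, and endothelial cells, pericytes, adipocytes, muscle and epithelium also make basement membrane.

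The promoters of 2 chain families are shown because their members moved together or lie side by side in the genome. RefSeq windows from 250 bases before to 50 bases after a start site (build GRCm38.p6) were matched for 24 of the 38 genes. Col4a1 and Col4a2, the chains of the common type IV collagen trimer, start in opposite directions from 1 stretch of chromosome 8. In the windows used their start sites were 21 bases apart. The gene record of Col4a1 reaches 11312889, beyond the start site of its window (11312826), so the distance and the overlap hold for these windows only. The Col4a1 and Col4a2 windows share 78 bases (chr8:11312777-11312854), printed in capitals. The Col4a1 window lies at chr8:11312777-11313076 on the minus strand and the Col4a2 window at chr8:11312555-11312854 on the plus strand.
Col4a1 promoter: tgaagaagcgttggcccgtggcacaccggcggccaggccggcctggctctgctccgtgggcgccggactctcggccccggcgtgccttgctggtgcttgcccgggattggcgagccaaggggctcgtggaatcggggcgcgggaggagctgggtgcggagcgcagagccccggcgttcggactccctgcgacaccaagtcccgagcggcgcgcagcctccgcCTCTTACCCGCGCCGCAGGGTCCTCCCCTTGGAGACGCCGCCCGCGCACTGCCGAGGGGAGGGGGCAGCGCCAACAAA
Col4a2 promoter: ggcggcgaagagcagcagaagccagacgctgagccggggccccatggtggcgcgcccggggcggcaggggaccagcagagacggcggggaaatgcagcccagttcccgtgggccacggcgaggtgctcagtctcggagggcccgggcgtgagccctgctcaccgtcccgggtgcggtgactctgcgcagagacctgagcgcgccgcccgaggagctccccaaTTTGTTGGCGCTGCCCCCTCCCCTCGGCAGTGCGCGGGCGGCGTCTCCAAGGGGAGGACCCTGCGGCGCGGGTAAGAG
The shared stretch was read from opposite strands in these windows, which held 74.0% and 73.7% G and C bases, against a median of 52.7% over 32851 windows.

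Col1a2, a chain of type I collagen, and Col3a1, the type III collagen chain, are printed as a contrast within the fibrillar collagens. The Col1a2 window lies at chr6:4505368-4505667 and the Col3a1 window at chr1:45311288-45311587, both on the plus strand, and capitals mark matches to the 3 motifs searched on both strands, the TATA box (TATAAA), the CCAAT box (CCAAT) and the GC box (GGGCGG).
Col1a2 promoter: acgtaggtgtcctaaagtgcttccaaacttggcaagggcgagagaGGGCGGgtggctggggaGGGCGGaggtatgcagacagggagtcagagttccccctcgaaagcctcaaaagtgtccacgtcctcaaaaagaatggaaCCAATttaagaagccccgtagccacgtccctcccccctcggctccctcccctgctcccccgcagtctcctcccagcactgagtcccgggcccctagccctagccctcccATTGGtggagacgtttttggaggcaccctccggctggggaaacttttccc
Col3a1 promoter: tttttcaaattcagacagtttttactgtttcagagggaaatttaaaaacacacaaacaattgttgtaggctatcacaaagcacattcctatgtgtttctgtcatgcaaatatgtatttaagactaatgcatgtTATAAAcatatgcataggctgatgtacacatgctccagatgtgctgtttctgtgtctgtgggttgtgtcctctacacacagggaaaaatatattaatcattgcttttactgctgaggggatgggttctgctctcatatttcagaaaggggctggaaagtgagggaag
The Col1a2 window held 2 matches to the CCAAT box and 2 to the GC box, with 61.0% G and C bases. The Col3a1 window held 1 match to the TATA box, at -117 from the start site, and no match to the other motifs, with 37.7% G and C bases. The 24 member genes had 29 windows. The TATA box was in 5 of these, from 4 genes (Col3a1, Ogn, Postn and Tnc), and in 13.6% of all windows. The CCAAT box was in 9 member windows, from 9 genes, and in 37.4% of all windows. The GC box was in 16 member windows, from 14 genes, and in 35.7% of all windows. No motif overlaps another, and a match is a match of letters only.

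Nearly all of the measured genes were detected. A level was taken as detected above 5.72 on the log2 scale, under which lay 95% of 1190 olfactory and vomeronasal receptor genes, and 36 of the 38 means were above it. The means of Ogn (5.48) and Fap (5.56) were below it, and these genes exceeded it in 31 and 32 of 134 tumors. The SD across tumors was above 0.22, the median of 13760 detected genes, for 37 of the 38, and their median SD was 0.41. The exception was Col5a1 (SD 0.15). Values of different probe sets are not comparable as levels, so only the spread of each gene is set beside that of others.

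The fibrillar collagens varied about 2-fold between most tumors. Col1a1, the main chain of type I collagen, ranged from 8.03 to 11.14 with a median of 9.83 (mean 9.85 ± 0.47, SD, n = 134), and its partner chain Col1a2 from 7.55 to 10.48 with a median of 9.47. The tumor at the 90th percentile was 2.07-fold above that at the 10th percentile for Col1a1 and 1.99-fold for Col1a2. Col3a1 ranged from 7.57 to 10.09 with a median of 8.72, a percentile ratio of 2.04. The type V chains, which start fibrils and set their width, varied less, with Col5a1 between 6.91 and 7.94 (median 7.35, ratio 1.27) and Col5a2 between 6.33 and 7.99 (median 6.99). The chains of type VI collagen, which forms beaded filaments near cells, ranged from 7.30 to 9.36 for Col6a1 (median 8.35), from 7.30 to 9.25 for Col6a2 (median 8.22) and from 7.68 to 9.47 for Col6a3 (median 8.61).

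Larger spreads were found for some of the proteins that bind fibrils or fill the matrix between them. Dcn, the proteoglycan decorin, ranged from 7.81 to 11.76 with a median of 9.98 (SD 0.76), and its percentile ratio of 4.10 was the largest of the 38. Lum, the proteoglycan lumican, ranged from 5.37 to 8.99 with a median of 7.19 (ratio 3.37) and was above the detection level in 129 tumors. Tnc, tenascin C, ranged from 6.28 to 10.55 with a median of 8.45 (ratio 2.97), and Vcan, the large proteoglycan versican, from 6.52 to 10.86 with a median of 8.25 (ratio 2.92). Col12a1, which binds the surface of fibrils and can link them to tenascins, ranged from 6.72 to 9.93 with a median of 8.58 (ratio 2.60). Its relative Col14a1 ranged from 6.74 to 9.13 with a median of 7.94. Bgn (biglycan) and Fmod (fibromodulin), relatives of decorin, varied less than Col1a1, with ratios of 1.83 and 1.80.

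The basement membrane genes had few tumors far above the rest. Col4a1 ranged from 7.35 to 9.16 with a median of 7.90 (ratio 1.58), and Col4a2 from 7.06 to 8.93 with a median of 7.66 (ratio 1.56). Nid1, which bridges laminin and type IV collagen, ranged from 6.88 to 9.93 (median 7.77), and Lama2, the laminin alpha chain of muscle and peripheral nerve, from 5.98 to 9.11 (median 6.95). Lamb1 and Lamc1, the beta and gamma chains of most laminins, ranged from 7.15 to 9.19 (median 8.01) and from 7.85 to 10.13 (median 8.68). Col15a1 and Col18a1, whose products link basement membrane to the matrix beneath, ranged from 6.87 to 9.01 (median 7.54) and from 6.93 to 8.16 (median 7.34).

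The other members had percentile ratios between 1.60 and 2.22. Eln, which encodes the elastin precursor, ranged from 7.05 to 11.90 with a median of 8.60. Its 2 highest tumors, numbers 90 and 79, stood at 11.90 and 11.81, and the next, number 100, at 9.96. Fn1 (fibronectin), Postn (periostin) and Sparc (a collagen-binding glycoprotein) ranged from 8.86 to 11.95, from 8.88 to 11.95 and from 10.36 to 12.49. The cross-linking enzymes Lox and Loxl1 ranged from 5.40 to 8.89 and from 6.59 to 8.63. The growth factor receptors Pdgfra and Pdgfrb, carried by fibroblasts and by pericytes, ranged from 6.53 to 9.26 and from 7.15 to 9.32. The ranges of Bgn, Fmod, Ogn (osteoglycin), Fbln1 and Fbln2 (fibulins), Tnxb (tenascin X), Thy1 and Fap (fibroblast surface proteins) are in the plot of all members by tumor.

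**Figure D1:**
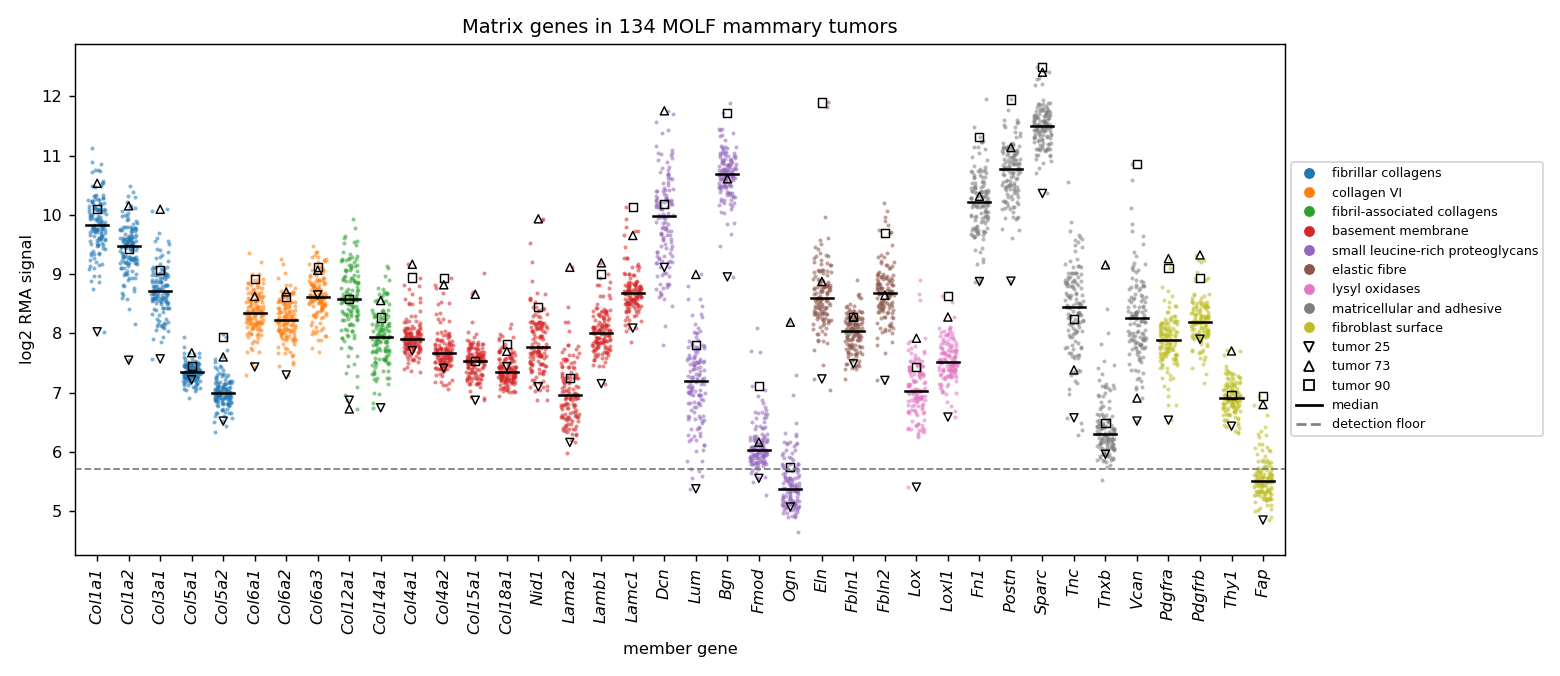
Log2 signal of the 38 measured genes (columns, coloured by family) in 134 tumors (points), with the median of each gene as a bar and the detection level of 5.72 as a dashed line. Tumor 25 is lowest in 17 genes, tumor 73 highest in 11 and tumor 90 highest in 8, and only Ogn and Fap have their means under the dashed line.

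A few tumors held most of the extreme values. The tumor numbered 25 was the lowest of all in 17 of the 38 genes and among the lowest 3 in 24, with Col1a1 at 8.03 against 8.74 in the next lowest, number 126. In tumor 25 the means of the markers of endothelium (6.81), of fibroblasts outside the members (6.59) and of macrophages (7.45) were the lowest of all tumors, while the epithelial mean (10.17) equalled the median. The tumor numbered 73 was the highest in 11 genes (Col3a1, Col4a1, Nid1, Lama2, Lamb1, Dcn, Lum, Ogn, Tnxb, Pdgfra and Pdgfrb) and the lowest in Col12a1. It also had the highest means of adipocyte (11.41), skeletal muscle (12.23), endothelial (9.24) and pericyte (9.59) markers and the lowest of epithelial (8.64) and cell cycle (6.79) markers, against medians of 7.25, 7.19, 7.23, 7.78, 10.17 and 9.49. Its array deviated more than most from the others (median absolute deviation 0.232, where the range was 0.0738 to 0.273 and the median 0.106). The part that its other tissues had in its matrix values was not tested.

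The tumor numbered 90 was the highest in Col4a2, Lamc1, Eln, Loxl1, Postn, Sparc, Vcan and Fap, while its adipocyte mean of 7.81 was well inside the range of 6.37 to 11.41 and its skeletal muscle mean was 6.13, near the lowest value of 6.00. Like tumor 73 it was high in the means of endothelial (7.57), pericyte and smooth muscle (8.24) and fibroblast markers (the last in rank 130 of 134 from the lowest) and low in that of epithelial markers (9.79, the 6th lowest). Vcan was 10.86 in tumor 90 and 6.91 in tumor 73, the second lowest. Tumor 79 was highest in Col1a1, Col5a2, Bgn and Fbln1, and tumor 94, with an adipocyte mean of 11.04, in Col5a1, Col6a2, Col6a3, Col15a1 and Thy1.

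Most of the genes rose and fell together across tumors. The mean pairwise Pearson r over the 703 pairs was 0.44, 676 pairs were positive, and the mean over all detected genes was 0.0112. The first principal component held 48.5% of their standardized variance, and every gene had a positive weight on it. These correlations are a description over 134 tumors, and in whole tumor tissue more cells of a type cannot be told apart from more RNA per cell.

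The fibrillar collagens were the tightest family, with a mean r of 0.75 over 10 pairs (lowest 0.61), followed closely by collagen VI with 0.74 over 3 pairs. Between these families the mean r was 0.69. The 8 basement membrane genes had a mean r of 0.50 over 28 pairs, from -0.08 (Col18a1 with Lama2) to 0.92, and the 6 matricellular and adhesive genes 0.37 over 15 pairs, from -0.06 (Tnxb with Vcan) to 0.78. Fibrillar and basement membrane genes had a mean r of 0.43 over 40 pairs, and fibrillar and matricellular genes 0.47 over 30. Basement membrane and matricellular genes had a mean r of 0.36 over 48 pairs. The matricellular genes were thus no closer to each other than to the fibrillar collagens, as a description without a test of the difference. Over 12 recomputations, among them 1 without tumor 73, the mean r lay between 0.71 and 0.79 for the fibrillar collagens, 0.66 and 0.75 for collagen VI, 0.41 and 0.52 for the basement membrane genes, and 0.34 and 0.49 for the matricellular genes. Between families it lay between 0.34 and 0.46 for fibrillar with basement membrane genes, 0.42 and 0.59 for fibrillar with matricellular genes, and 0.33 and 0.47 for basement membrane with matricellular genes.

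The matricellular genes were unlike each other. Sparc had the highest mean r with the other members of all 38 genes (0.60), with Loxl1 next (0.59), and Postn (0.53) and Fn1 (0.50) were near. Tnc (0.17) and Vcan (0.24) were among the lowest. The least like the others was Col12a1, with a mean r of 0.11 and 11 negative values, the lowest with Lama2 (-0.34). Col12a1 had r = 0.67 with Tnc, the closest member to each of them. Vcan had nearly equal r with Eln (0.52), Fmod (0.52) and Lamc1 (0.51), and without tumor 73 its r was 0.53 with Eln and 0.58 with Lamc1. By ranks Vcan and Eln had rho 0.30. The other fibril-associated collagen, Col14a1, had r = 0.03 with Col12a1 and was closest to Lum (0.78) and Dcn. Col18a1 had a mean r of 0.16 and was closest to Col4a1 (0.60).

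The second principal component (11.3% of the variance) set basement membrane genes and fibulin 2 against decorin and its neighbors. Its largest weights were those of Fbln2 (0.34), Col4a2 (0.31), Col4a1 (0.30), Col18a1 (0.28), Lamc1 (0.27) and Lamb1 (0.27) on the one side and of Dcn (-0.25), Lum (-0.20), Lama2 (-0.20), Ogn (-0.18) and Col14a1 (-0.18) on the other. The other basement membrane genes, Col15a1 (-0.08) and Nid1 (-0.02), had weights near 0. In their pairwise r, Col3a1 was the member closest to Lama2 (r = 0.77) and Lama2 that closest to Col15a1 (r = 0.77).

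**Figure D2:**
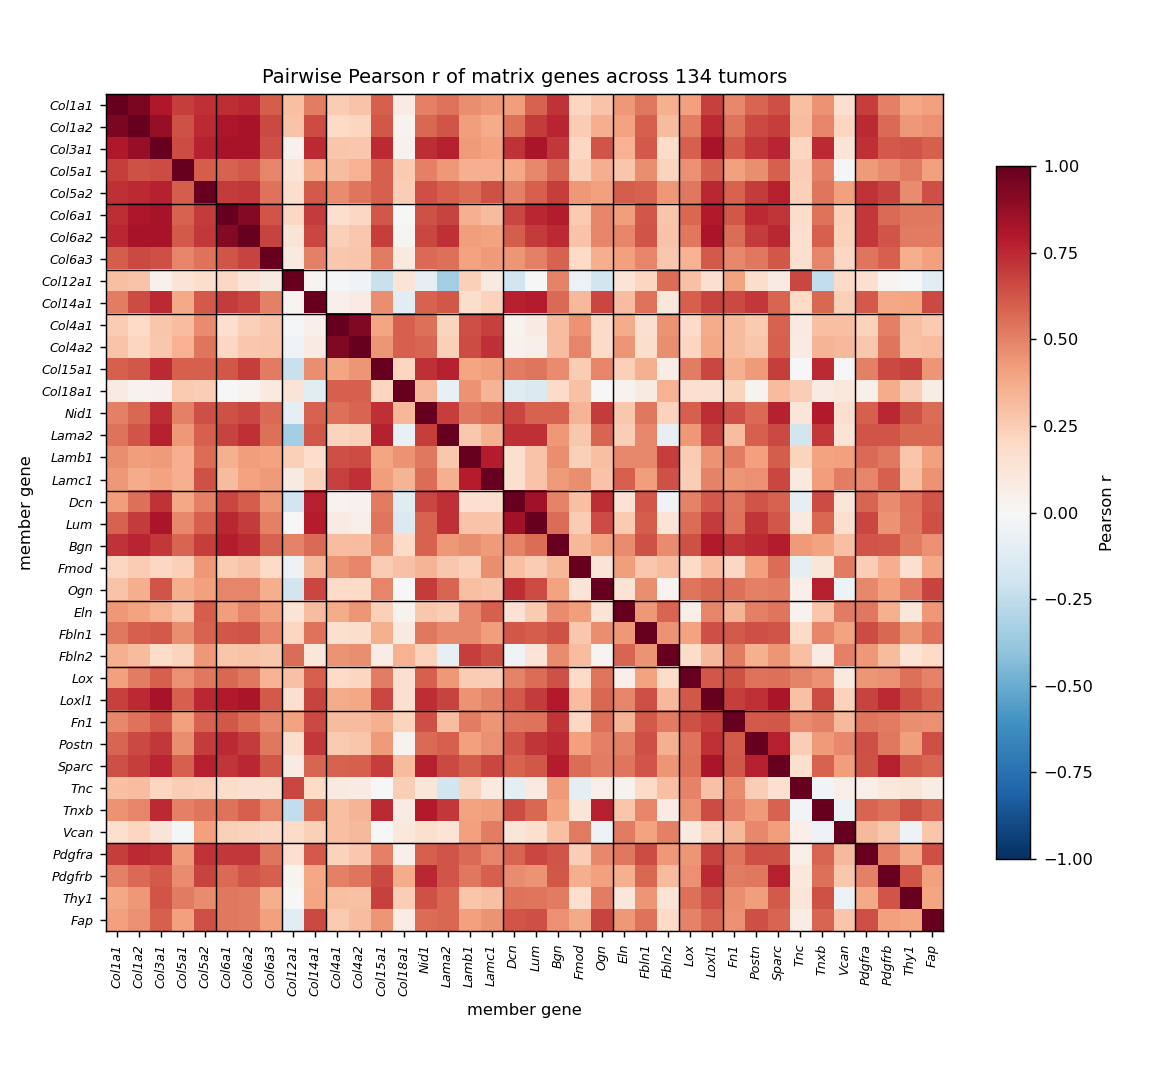
Pairwise Pearson r between the 38 genes (rows and columns, ordered by family, with lines between families) across 134 tumors, from -1 (blue) to 1 (red). The block of fibrillar collagens and collagen VI is dark red (mean r 0.75 and 0.74 within), Col4a1 and Col4a2 form a dark pair of their own, and the rows of Col12a1, Col18a1 and Tnc are the palest, with most of the blue cells.

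Chains of 1 protein were compared with genes that only share a compartment in 21 pairs, each with a permutation test of 100000 resamples. The closest pairs were chains of 1 trimer. Col1a1 and Col1a2 had r = 0.94 (Spearman's rho 0.91), Col4a1 and Col4a2 had r = 0.92 (rho 0.87), and Col6a1 and Col6a2 had r = 0.91 (rho 0.92), with p = 1e-05 for each, the smallest the permutations can give, and r between 0.86 and 0.94 within each of the runs of label numbers described below. The difference between the chains varied little from tumor to tumor, with an SD of 0.16 for type I, 0.13 for type IV and 0.14 for type VI. Col6a3, the third chain of the type VI trimer, followed Col6a1 less closely (r = 0.63, rho 0.58, p = 1e-05), as did the type V pair Col5a1 and Col5a2 (r = 0.61, rho 0.53, p = 1e-05).

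Among laminin chains, Lamb1 and Lamc1 had r = 0.79 (rho 0.71, p = 1e-05), whereas Lama2 and Lamc1 had r = 0.35 (rho 0.29, p = 6e-05), which was 0.14 among the 28 tumors numbered 107 to 134 and no longer passed there. Nid1 and Lamc1, direct partners, had r = 0.56 (rho 0.46, p = 1e-05). Dcn and Lum had r = 0.84 (rho 0.85, p = 1e-05), and Dcn and Bgn, although decorin and biglycan are close in structure, had r = 0.50 (rho 0.49, p = 1e-05). Lox and Loxl1 had r = 0.62 (rho 0.65), Pdgfra and Pdgfrb 0.50 (rho 0.44), and Fap and Thy1 0.40 (rho 0.40), with p = 1e-05 for each. Among tumors 107 to 134, Dcn with Bgn (r = 0.34), Pdgfra with Pdgfrb (0.18) and Fap with Thy1 (0.18) no longer passed. All of the pairs in this paragraph had limma adjusted p under 0.05 over all genes, where between 14.9% and 37% of genes passed with the first gene of a pair as the covariate.

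Type I and type IV collagen were only loosely related. Col1a1 and Col4a1 had r = 0.25 (permutation p = 0.00367, limma adjusted p = 0.016), but rho was 0.17 (p = 0.0514), and r fell to 0.21 when the 2 tumors at the greatest distance from the Col1a1 median were left out. Within the runs r was 0.22 and 0.39. Col1a1 had r = 0.65 with Sparc (rho 0.55, p = 1e-05), 0.48 with Fn1 (rho 0.43, p = 1e-05) and 0.30 with Tnc (rho 0.26, p = 0.0005), and Col4a1 had r = 0.59 with Sparc (rho 0.53, p = 1e-05). Postn and Tnc had r = 0.25 (rho 0.19, p = 0.00425). Col15a1 and Col18a1, relatives in 1 collagen subfamily, had r = 0.21 (p = 0.0132), but rho was 0.10 (p = 0.234), and r was 0.08 without the 2 farthest tumors, so that the relation rested on those tumors. For every other pair r stayed at 0.20 (Postn with Tnc) or above without its 2 farthest tumors.

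Some neighbors in the genome were close pairs, but these are also chains of 1 trimer or members of 1 family, so position and family cannot be told apart. Col3a1 and Col5a2 (r = 0.77), Col6a1 and Col6a2, Col4a1 and Col4a2, and Dcn and Lum have no protein-coding gene between them. Col18a1 lies near Col6a1 and Col6a2 on the same chromosome, with 2 and 3 protein-coding genes between, and had r = 0.01 and 0.02 with them. Col1a1 and Col1a2, on different chromosomes, had the highest r of all pairs (0.94). Col3a1 was closest to Col1a2 (0.87) and Col5a2 to Sparc (0.78).

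**Figure D3:**
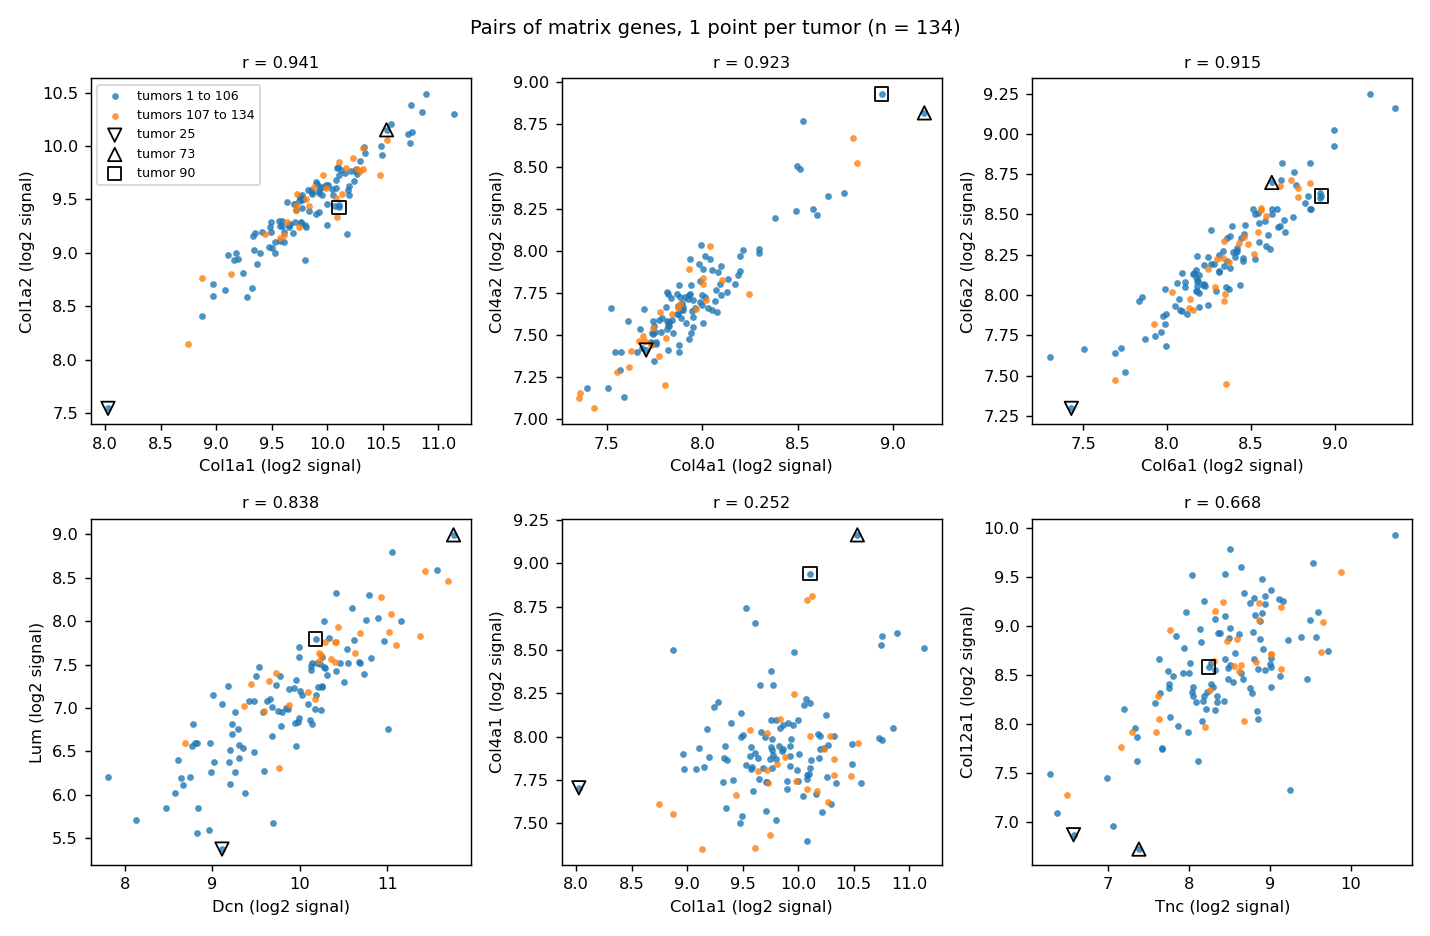
Log2 signals of 6 pairs of genes, 1 point per tumor (n = 134), coloured by run of label numbers, with Pearson r above each panel. The chain pairs of types I, IV and VI collagen (r = 0.94, 0.92 and 0.91) and Dcn with Lum (0.84) lie along a line, Col1a1 with Col4a1 (0.25) forms a cloud with tumors 73 and 90 at its upper edge, and Tnc with Col12a1 (0.67) lies between.

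Each gene was then fitted on Col1a1, standing for interstitial collagen, and on Col4a1, standing for basement membrane. With Col1a1, 34 of the other 37 members were higher (limma, adjusted p under 0.05) and none was lower. Of all genes 25.5% passed, and 11.8% of all genes were higher. The median coefficient was 0.21 log2 per SD of Col1a1 for members and -0.0017 for all genes. The steepest were Col1a2 (0.41 ± 0.01, SE, adjusted p = 3.6e-60), Lum (0.41 ± 0.05, adjusted p = 2.1e-11) and Col3a1 (0.33 ± 0.02, adjusted p = 1.7e-27). The 3 that did not pass were Col18a1 (0.02, adjusted p = 0.56), Vcan (0.11, adjusted p = 0.15) and Fmod (0.09, adjusted p = 0.052). Among the 28 tumors numbered 107 to 134 alone, 21 were higher. Without tumors 25, 73 and 90, left out after the data were seen, 33 were higher.

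With Col4a1, 27 of 37 members were higher and none was lower. Of all genes 30.3% passed, and 13.5% of all genes were higher. The steepest were Col4a2 (0.31 ± 0.01, adjusted p = 8.7e-53), Nid1 (0.29 ± 0.04, adjusted p = 8.8e-10), Lamc1 (0.24 ± 0.02, adjusted p = 1.7e-16) and Eln (0.23 ± 0.05, adjusted p = 0.00013). The 10 that did not pass were Col1a2, Col6a1, Col12a1, Col14a1, Dcn, Lum, Ogn, Fbln1, Lox and Tnc. Col1a2 had a coefficient of 0.09 (adjusted p = 0.058) and Dcn of 0.03 (adjusted p = 0.77). Without tumor 73, 21 members were higher, and Col3a1, Col6a2, Fap, Lama2, Pdgfra and Tnxb no longer passed.

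The difference between these relations was tested in 1 fit with both genes, in which the contrast is 0 for a gene that correlates equally with Col1a1 and Col4a1. Of 36 members, 17 were closer to Col1a1 and 3 closer to Col4a1 (adjusted p under 0.05), where 16.5% of all genes passed, 7.76% toward Col1a1 and 8.75% toward Col4a1. The 3 closer to Col4a1 were Col4a2 (contrast -0.28 ± 0.02, adjusted p = 8.1e-28), Col18a1 (-0.16 ± 0.03, adjusted p = 2.3e-06) and Lamc1 (-0.12 ± 0.03, adjusted p = 0.0091). The 17 closer to Col1a1 were the 4 other fibrillar chains, the 3 type VI chains, Col12a1, Col14a1, Dcn, Lum, Bgn, Fbln1, Loxl1, Postn, Pdgfra and Lama2. The largest were Lum (0.47 ± 0.08, adjusted p = 3e-06), Col1a2 (0.43 ± 0.02, adjusted p = 1.1e-38) and Dcn (0.39 ± 0.10, adjusted p = 0.0024). Lama2 was the only basement membrane gene among the 17 (0.22 ± 0.06, adjusted p = 0.0056), and its call was lost by ranks, as was that of Lamc1.

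For the other 16 members the contrast did not pass, which does not show that they follow both collagens equally. Sparc had r = 0.65 with Col1a1 and 0.59 with Col4a1 (contrast 0.03 ± 0.03), and Pdgfrb had r = 0.51 with each (contrast -0.00023 ± 0.040). Lamb1 (-0.08 ± 0.03, adjusted p = 0.081) and Fmod (-0.13 ± 0.05, adjusted p = 0.066) leaned toward Col4a1, and Fmod passed without tumor 73 (-0.14, adjusted p = 0.039). All 20 members that passed did so without tumor 73 as well, but by ranks 13 of the 20 did, and Col12a1, Col6a3, Fbln1, Lama2, Lamc1, Loxl1 and Postn did not. Among the tumors numbered 107 to 134 alone, 8 were closer to Col1a1 and 1 to Col4a1.

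**Figure D4:**
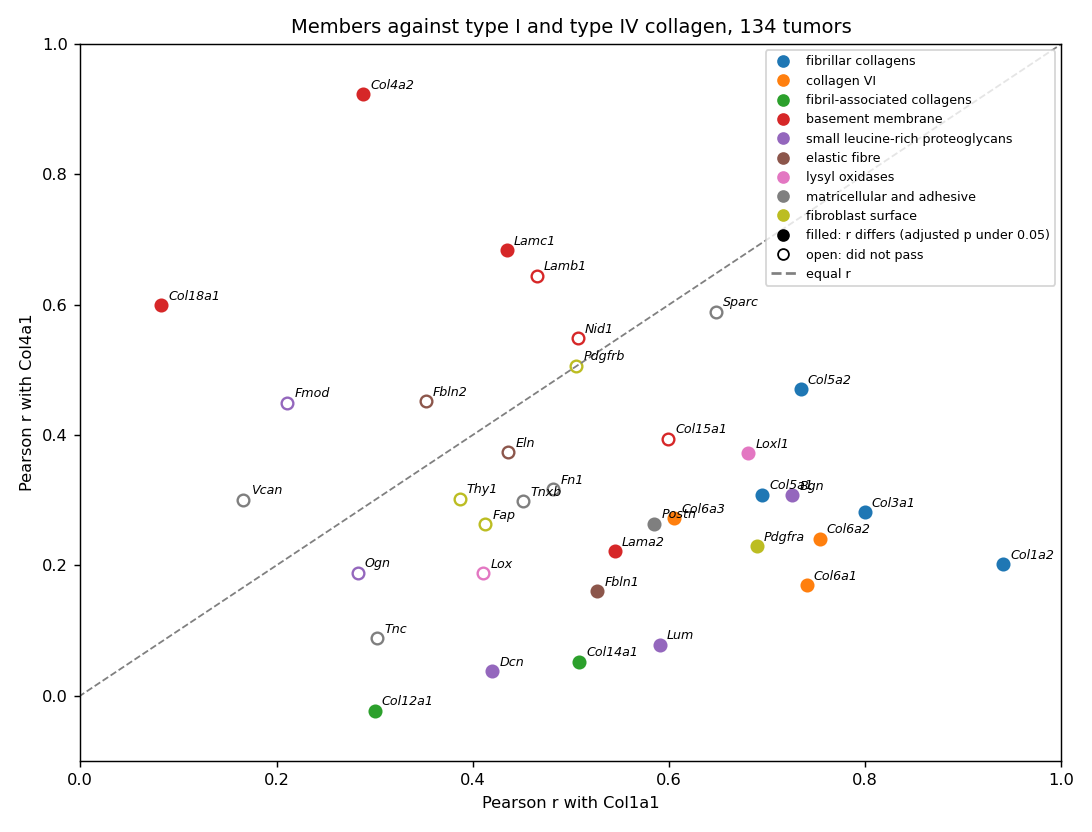
Pearson r of each of 36 genes with Col1a1 (horizontal) and with Col4a1 (vertical) across 134 tumors, with the line of equal r dashed and filled points where the contrast passed (adjusted p under 0.05). The 17 filled points below the line are led by Col1a2, Col3a1 and the type VI chains, and the 3 above it are Col4a2, Col18a1 and Lamc1.

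By count, enzymes and chaperones that fold and process collagen followed type IV more than type I. Of 22 measured genes of collagen biosynthesis, 12 were higher with Col4a1 and none lower, where 13.5% and 16.9% of all genes were. With Col1a1 5 were higher and 3 lower, where 11.8% and 13.7% of all genes were, so that the share that was lower was near that of all genes. In the contrast 8 were closer to Col4a1 and 1 (P4ha3) to Col1a1, where 8.75% and 7.76% of all genes were. Without tumor 73 the counts were 13 higher with Col4a1 and 9 closer to Col4a1, and among tumors 107 to 134 alone 9 and 2. P4ha1, the catalytic subunit of a prolyl hydroxylase, rose with Col4a1 (0.24 ± 0.04, adjusted p = 1.9e-06) and fell with Col1a1 (-0.13 ± 0.04, adjusted p = 0.016). Its contrast was -0.50 ± 0.06 (adjusted p = 2.3e-10). Plod1 and Plod2, lysyl hydroxylases, had contrasts of -0.39 ± 0.06 and -0.38 ± 0.09, and Serpinh1, the collagen chaperone, of -0.15 ± 0.05 (adjusted p = 0.014). The genes higher with Col1a1 were Pcolce, an enhancer of procollagen cleavage (0.21 ± 0.03, adjusted p = 2.8e-08), Pcolce2, the protease Bmp1, P3h3 and P4ha3. Of these, Pcolce, Bmp1 and P3h3 were also higher with Col4a1, and only P4ha3 passed the contrast toward Col1a1.

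Of 32 other matrix genes, 19 were higher with Col1a1 and 14 with Col4a1, and none was lower with either. Mfap5, of elastic microfibrils, was closer to Col1a1 (contrast 0.34 ± 0.06, adjusted p = 2.2e-05), as were 9 others, and Lama5 (-0.24 ± 0.06, adjusted p = 0.0032) and Nid2 (-0.21 ± 0.03, adjusted p = 1.2e-10) were closer to Col4a1. Among 20 matrix receptors, 5 were higher and 1 (Sdc1) lower with Col1a1, and 6 were higher and 1 (Itgb6) lower with Col4a1. Of the collagen-binding integrins, Itga11 was closer to Col1a1 (0.10 ± 0.03, adjusted p = 0.0068) and Itga1 closer to Col4a1 (-0.18 ± 0.05, adjusted p = 0.0041). Itga1 was also higher with Col1a1 (0.10 ± 0.03, adjusted p = 0.024), and Itga2 passed neither with these collagens nor in the contrast. Of 15 genes of TGF-beta signaling, an inducer of matrix genes, 3 were higher with Col1a1 (Tgfbr2, Tgfbr3 and Ltbp3) and none lower, and with Col4a1 3 were higher (Ccn2, Tgfbr2 and Tgfbr3) and 2 lower (Tgfb2 and Tgfbr1). Without tumor 73, 6 of the TGF-beta genes were higher with Col1a1. Of all genes, 11.8% were higher and 13.7% lower with Col1a1, and 13.5% and 16.9% with Col4a1. In the contrast 7.76% were closer to Col1a1 and 8.75% to Col4a1. The counts of receptors and TGF-beta genes, also that without tumor 73, are small and are not read as a result about these lists.

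Outside the members, the 10 genes that followed Col1a1 most closely were Svep1 (r = 0.76), Meg3, Lrp1, Hspg2, Adamts12, Ctsk, Ccdc80, Podn, Cacna1g and Cdh11 (r = 0.62). Svep1 and Ccdc80 encode secreted matrix proteins, Hspg2 the basement membrane proteoglycan perlecan, Ctsk the collagen-degrading protease cathepsin K, and Cdh11 a cadherin of mesenchymal cells. The 5 most negative were Nufip1 (r = -0.56), Tyw5, the glycolytic enzyme gene Pgam1, the transferrin receptor gene Tfrc, and Wdr61 (r = -0.54). With Col4a1 the 5 closest were Nid2, a second nidogen (r = 0.76), Tgfb1i1, Gas1, Tagln, a smooth muscle protein gene, and Igfbp2 (r = 0.67).

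Markers of several other cell types moved with Col1a1, with Col4a1 or with both, and their values are given here because these are whole tumors. Of all genes, 11.8% were higher and 13.7% lower with Col1a1, and 13.5% and 16.9% with Col4a1. With Col1a1, 11 of 11 adipocyte, 12 of 12 skeletal muscle, 11 of 13 endothelial, 5 of 10 pericyte and smooth muscle and 10 of 12 fibroblast markers outside the members were higher, and 1 of the pericyte and smooth muscle markers (Kcnj8) and 11 of 12 cell cycle genes were lower. With Col4a1, 10 of 11 adipocyte, 0 of 12 skeletal muscle, 13 of 13 endothelial, 7 of 10 pericyte and smooth muscle and 5 of 12 fibroblast markers were higher, and 11 of 12 cell cycle genes were lower. Of 11 macrophage markers, 3 were higher with Col1a1, and with Col4a1 0 were higher and 1 (Ctss) was lower. No epithelial marker was higher with either collagen, and 1 of 12 was lower with Col1a1 and 4 with Col4a1. Of 7 myoepithelial markers, 2 were higher and 1 lower with Col1a1, and 3 were higher with Col4a1. Without tumor 73 only 2 of 11 adipocyte markers but 11 of 13 endothelial markers were higher with Col4a1, and 0 of 12 cell cycle genes were lower. Among tumors 107 to 134 alone, no adipocyte or skeletal muscle marker was higher with Col1a1. The mean of each list ranged over tumors from 6.37 to 11.41 for adipocytes, 6.00 to 12.23 for skeletal muscle, 6.81 to 9.24 for endothelium, 6.59 to 8.52 for fibroblasts and 7.34 to 9.59 for pericytes and smooth muscle. Lep among adipocyte markers and Tcf21 among fibroblast markers had means below the detection level, and the other measured markers of these lists were above it. With the adipocyte, skeletal muscle and macrophage scores as covariates, 30 members were higher with Col1a1 and 18 with Col4a1, and 17 were closer to Col1a1 by count. Of the 34 calls first made with Col1a1, 29 were kept, and Col4a1, Col4a2, Ogn, Thy1 and Tnxb no longer passed.

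All 12 epithelial markers had means above the detection level, with list means over tumors of 8.64 to 10.51. All endothelial, skeletal muscle, macrophage, and pericyte and smooth muscle markers were above it too, so detection does not single out epithelium. Most matrix genes rose with the endothelial score, the mean z-score of 13 markers. Of 38 members, 33 were higher with it and 1 (Col12a1) was lower, where 37% of all genes passed, 15.2% as higher and 21.8% as lower. The steepest was Nid1 (0.43 ± 0.03 log2 per SD of the score, adjusted p = 5.5e-31), and the call on Col12a1 (-0.13 ± 0.05, adjusted p = 0.033) was lost without tumor 73. With the adipocyte, skeletal muscle and macrophage scores as covariates, 22 of the 34 calls on the endothelial score were kept. Those lost were Col1a1, Col1a2, the 3 type VI chains, Dcn, Lum, Lama2, Fbln1, Pdgfra, Postn and Col12a1, whose coefficient changed sign. With the adipocyte score, 31 members were higher and 1 (Col12a1) lower, where 34.1% of all genes passed, 13.8% as higher and 20.3% as lower. By the test Tnxb (0.44 ± 0.02, adjusted p = 2.4e-34), Col15a1 (0.23 ± 0.02, adjusted p = 3.3e-23) and Nid1 (0.37 ± 0.03, adjusted p = 2.1e-20) followed it most closely. Tnc, Vcan, Fbln2 and Eln passed neither of these fits.

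With the epithelial score, 17 members were lower and 2 were higher, where 38.1% of all genes passed, 17.9% as lower and 20.2% as higher. The most negative by test were Fap (-0.18 ± 0.03, adjusted p = 1.6e-09), Ogn (-0.23 ± 0.04, adjusted p = 9.5e-08) and Tnxb (-0.23 ± 0.04, adjusted p = 1e-06), and the 2 that rose were Tnc (0.19 ± 0.06, adjusted p = 0.006) and Col12a1 (0.18 ± 0.05, adjusted p = 0.0019). Without tumor 73, 9 members were lower and 1, Tnc (0.16, adjusted p = 0.021), was higher, and Col12a1 no longer passed. Fap, which had its mean below the detection level, stayed lower (-0.15, adjusted p = 9e-07). By ranks 4 of the 19 calls were kept, and the coefficients of Col4a1 and Lamc1 turned positive without passing (adjusted p = 0.79 and 0.83). Among tumors 107 to 134 alone, 9 of the 19 members kept their direction and 1 kept its call. There the coefficients of Col15a1, Col3a1, Col4a1, Col4a2, Col5a1, Col5a2, Lamb1, Lamc1, Nid1 and Thy1 changed sign.

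With the cell cycle score, 26 members were lower and 1 was higher, where 47.4% of all genes passed, 25% as lower and 22.4% as higher. By ranks 12 members were lower, and 10 of these 27 calls were kept. Among the clearest were Col5a1 (-0.07 ± 0.01, adjusted p = 4e-08), Tnxb (-0.23 ± 0.04, adjusted p = 7.8e-07), Col15a1 (-0.12 ± 0.02, adjusted p = 8.3e-06) and Col1a1 (-0.18 ± 0.04, adjusted p = 2.1e-05). The calls on Tnxb and Col15a1 were lost by ranks, and the r of Tnxb with this score was -0.44 with and -0.22 without tumor 73. Vcan was the 1 that rose (0.16 ± 0.06, adjusted p = 0.014), and it did not pass without tumor 73. Without that tumor 18 members were lower, of which Col1a1 (-0.18, adjusted p = 1.3e-05) and Col5a1 (-0.07, adjusted p = 7.1e-08) kept their values, and Eln reached -0.19 (adjusted p = 0.00061).

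**Figure D5:**
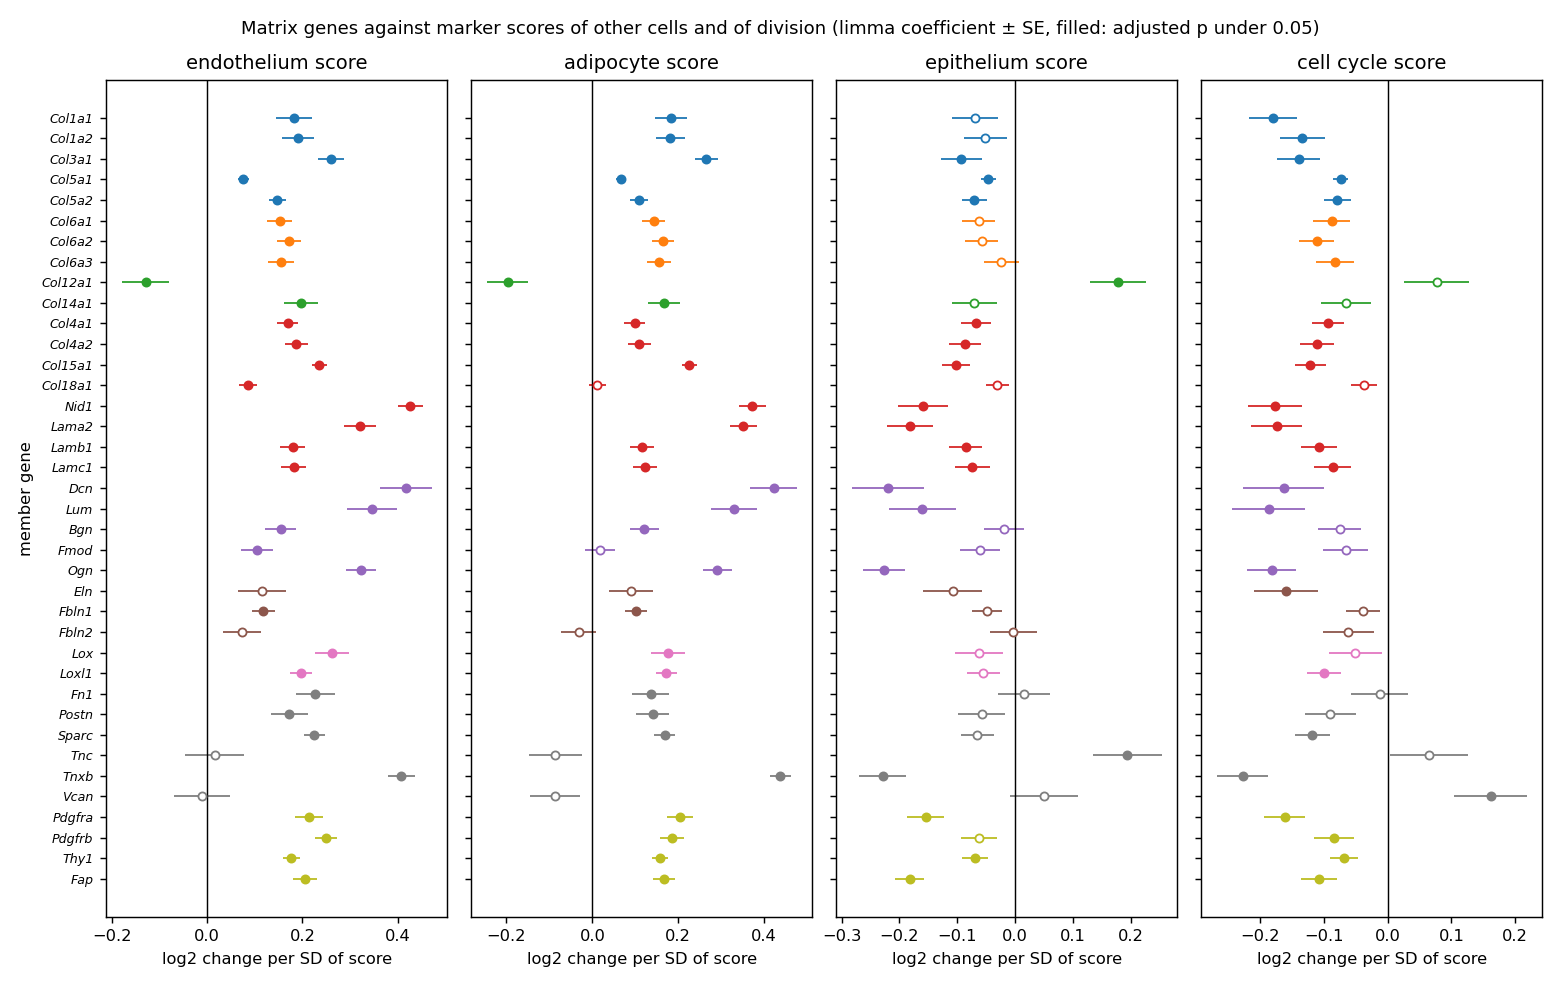
Coefficients of the 38 genes (rows, coloured by family) on the endothelial, adipocyte, epithelial and cell cycle scores, in log2 change per SD of the score with SE as bars, filled where the adjusted p was under 0.05. Most points lie right of 0 for endothelium (33 of 38 higher) and adipocytes (31 of 38) and left of 0 for epithelium (17 lower) and cell cycle (26 lower), and Col12a1 lies on the opposite side in all 4 panels.

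The labels number the tumors 1 to 134 without a break, but the animal numbers in them fall back to a lower value at tumor 107. The tumors were split there into the runs 1 to 106 and 107 to 134, and what these runs are is not given. Between the runs 5 members were higher in tumors 107 to 134 and 1 was lower, 15.8% of 38, where 14.4% of all genes passed, 7.7% as higher and 6.67% as lower. The share was near that of all genes. Dcn ranged from 7.81 to 11.76 with a median of 9.87 in the 106 tumors of the first run and from 8.69 to 11.69 with a median of 10.32 in the 28 of the second (difference 0.53 ± 0.15, adjusted p = 0.011). Lum had medians of 7.06 and 7.62 (0.52 ± 0.14, adjusted p = 0.0063), and Ogn, Col14a1 and Fap were higher by 0.31, 0.28 and 0.24. Col18a1 was lower by 0.15 (difference -0.15 ± 0.05, adjusted p = 0.025), and the runs overlapped in every one of these 6 genes. Without the tumors numbered 109 to 120, 3 members were lower (Col18a1, Col4a1 and Col4a2). The arrays of these tumors were taken to resemble those numbered 97 to 108, a likeness that was not measured here. The slope on Col1a1 differed between runs in 0 of 37 members by limma (0 also at an unadjusted p under 0.05, lowest adjusted p = 0.46), where 0.135% of all genes passed, 0.0502% as higher and 0.0853% as lower.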

How the data were processed

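The authors deposited log2 signals per probe set, made with RMA (version not stated) from total RNA on Mouse Gene 1.0 ST arrays, and these were used as deposited. No genome build is named in the sources used here. Of 35556 probe sets, 21789 with 1 gene symbol gave 19938 genes, each by its probe set with the highest mean. Genotypes, subtypes and outcomes were not analysed here. All genes were regressed, in limma 3.58.1 (R 4.3.3), on a standardized covariate (a gene, the mean z-score of a marker list, or the run of labels), 2-sided, with Benjamini-Hochberg adjustment over all genes, and an adjusted p under 0.05 passed. The fit was tested on simulated data. Pairs were tested with 100000 permutations over tumors, 2-sided, with scipy 1.17.1 and numpy 2.4.6 under Python 3.11.15 (tables by pandas 2.3.3, plots by matplotlib 3.10.9). Whether tumors came from separate litters is not given, and p-values measure the spread between these tumors.

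The members, families, pairs, marker lists and pathway lists were chosen with earlier results of these data known. Named genes were all members, the 10 most positive and 5 most negative genes outside the members in the Col1a1 fit, the 5 most positive in the Col4a1 fit, and examples from the lists. The lists were collagen biosynthesis, matrix receptors, other matrix genes, TGF-beta signaling, and markers of fibroblasts, pericytes and smooth muscle, endothelium, adipocytes, skeletal muscle, macrophages, epithelium, myoepithelium and cell cycle. Pairs read from the correlations of all members (such as Tnc with Col12a1) were picked with their values already seen, and so were the 3 tumors left out together. Alternatives were the mean of probe sets, a repeated quantile normalization, dim genes left out, ranks, the run, array quality or other cell types as covariates, each run alone, and tumors left out.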

Additional observations from a re-analysis of the deposited data

How the results depend on the processing

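Of 204 recomputed counts of members, 171 stayed within 1.5 times the first value, and 96 of 105 pair results stayed on their side of the threshold. Among tumors 107 to 134 alone, 21 members were higher with Col1a1 and 12 with Col4a1, 8 and 1 were closer to Col1a1 and Col4a1, 11 were higher and 0 lower with adipocytes, 0 were lower with endothelium, 1 was lower with epithelium, and 0 were higher and 8 lower with the cell cycle. There r was 0.14 for Lama2 and Lamc1, 0.34 for Dcn and Bgn, 0.18 for Pdgfra and Pdgfrb, 0.18 for Fap and Thy1 and 0.33 for Col15a1 and Col18a1, and these no longer passed. The last pair also failed among tumors 1 to 106 (r = 0.18), without the 2 farthest tumors (0.0763) and by rank (rho 0.10), as did Col1a1 and Col4a1 by rank (rho 0.17). By ranks, 31 members were higher with Col1a1 and 18 with Col4a1, 12 and 2 were closer to Col1a1 and Col4a1, 0 were lower with endothelium and 0 with adipocytes, 1 was higher and 3 were lower with epithelium, and 12 were lower with the cell cycle. With array quality as a covariate, 0 were lower with endothelium, 27 lower with epithelium and 0 higher with the cell cycle. With other cell types as covariates, 5 were closer to Col4a1 in the contrast, 0 were lower with endothelium, 0 higher and 5 lower with epithelium, and 0 higher with the cell cycle. Without tumor 73, 0 were lower with endothelium, 1 was higher and 9 were lower with epithelium, and 0 were higher with the cell cycle. Without tumors 25, 73 and 90, 0 were lower with endothelium, 1 was higher and 7 were lower with epithelium, and 15 were lower with the cell cycle. With dim genes left out, 3 members were higher in the second run, and without tumors 109 to 120, 3 were lower. Shares of all genes passing moved as well. Among tumors 107 to 134 they were 6.42% with Col1a1, 15.7% with Col4a1, 4.57% in the contrast, 5.09% with endothelium, 2.95% with adipocytes and 8.53% with the cell cycle. Without tumor 73 they were 19.1% with Col4a1, 20.9% with endothelium and 20.5% with adipocytes, and by ranks 12.3%, 22.3% and 14.9%. The contrast share was 9.7% among tumors 1 to 106 and 27.4% with other cell types as covariates. The causes were not tested, and the second run held fewer tumors than the first. The epithelial and cell cycle counts rest in part on tumor 73. Ogn and Fap lie near the background signal, which limits their values. No paired analysis was possible because the labels give 1 group of tumors.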

Other observations

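Versican and the myoepithelial markers varied together. Vcan had r = 0.57 with the mean z-score of the myoepithelial list and -0.23 with the skeletal muscle list, and Col4a1 had r = 0.45 and 0.12 with the same lists (134 tumors, described without a test). With tumor 73 left out, the values were 0.57 and -0.19 for Vcan and 0.49 and 0.00 for Col4a1. Over all 134 tumors Col4a1 was closer to the pericyte and smooth muscle list (r = 0.65) and the endothelial list (0.55) than to the myoepithelial list. Without tumor 73 its r with those 2 lists was 0.58 and 0.46. Tenascin X had r = 0.84 with the adipocyte list, 0.78 with the endothelial list and 0.76 with the fibroblast list. Tenascin C had r = -0.12 with the adipocyte list. Fap had r = 0.79 with the fibroblast markers outside the members, although its mean lay below the detection level.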
